A study of Mus musculus with 40 samples.

Results

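The comparison described here set the RNA captured on tagged ribosomes of mouse striatal neurons (the neuron IP) against the total RNA of the striatal lysate (the input). Its members were chosen by label: the 4 libraries of the neuron IP and the 4 of its input, 8 of the 40 libraries of the series, and every gene that passed a filter on low counts, 16198 of the 24060 genes in the count table. All 8 libraries came from adult C57/BL6NTac mice that carried no knockout and no further treatment. At 6 weeks of age, their dorsal striatum received an AAV1 vector (hSYN1-Rpl22-HA), so that the promoter of human synapsin 1 drove a haemagglutinin-tagged copy of the ribosomal protein Rpl22. The IP was made with an antibody to that tag, and the input was a small share of the same kind of cleared lysate taken before the antibody was added. The IP was therefore aimed at cells that the vector reached and in which this promoter was active, whereas the input held RNA of all striatal cell types. How far RNA of other cells entered the IP was not tested, and no library carried the tag in a chosen neuron subtype. The labels give the IP and the input libraries of a number different animal numbers, although same-numbered libraries varied together across genes.

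The dorsal striatum is built mainly of medium spiny neurons, GABA-releasing projection cells of a direct pathway, which carry the dopamine receptor Drd1 and substance P, and of an indirect pathway, which carry Drd2 and enkephalin. Sparse interneurons release acetylcholine or GABA, cortical and thalamic axons bring glutamate without bringing their nuclei, and astrocytes, oligodendrocytes, microglia and vessels fill the rest. RiboTag isolates transcripts that sit on ribosomes of the tagged cells, so the IP to input ratio of a transcript depends on which cells hold it and on how much of it is bound to ribosomes. In such bulk samples, fewer cells of a type and less RNA per cell cannot be told apart.

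The inputs held 50996128 to 55562139 counts and the IP libraries 74406514 to 84109800. Levels are CPM, gene counts scaled to a common library size, with effective sizes from the trimmed mean of M values (TMM), and differences are log2 fold changes of IP over input, with their standard errors (SE), from the quasi-likelihood test of edgeR, whose p-values were adjusted by Benjamini and Hochberg's method over all 16198 genes. A gene is said to have risen or fallen when its adjusted p was below 0.05. By that rule 5744 genes were higher in the IP (35.5% of those tested) and 5813 were lower (35.9%). Beyond a log2 fold change of 1 the directions were uneven, with 68 genes higher (0.420%) and 2567 lower (15.8%), so that 97.4% of the genes beyond that limit were lower in the IP. Scaling by total counts alone moved the median of all genes by -0.21 and changed the split to 3026 higher and 8002 lower of 16198. Counts of list members under that scaling are to be read against this split. Where that scaling turned the sign or ended the call of a gene named below, its value there is given as the total-count value.

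Ppp1r1b, Penk, Tac1 and Rbfox3 served as the check of the label, and all 4 were higher in the neuron IP. Penk, the precursor of enkephalin in indirect pathway neurons, had 1273, 1634, 1300 and 1380 CPM in the IP libraries and 597, 828, 569 and 652 CPM in the inputs. The groups did not overlap, and the log2 fold change was 1.08 (SE 0.12, edgeR adjusted p = 2.4e-05). Tac1, the substance P precursor of direct pathway neurons, had 187, 247, 192 and 233 CPM in the IP and 93.2, 126, 89.0 and 115 CPM in the inputs (log2 fold change 1.02, SE 0.13). Library 2 was the highest of its group for both peptides in IP and input alike. Ppp1r1b, which encodes the dopamine-regulated phosphatase inhibitor DARPP-32, rose 2.01-fold, from 669 ± 123 to 1345 ± 168 CPM (SD, n = 4). Rbfox3, the NeuN splicing factor found in most neurons, rose less: it had 243 to 270 CPM in the IP against 181 to 208 CPM in the inputs, without overlap, a log2 fold change of 0.38 (SE 0.055, edgeR adjusted p = 0.00013).

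**Figure D1:**
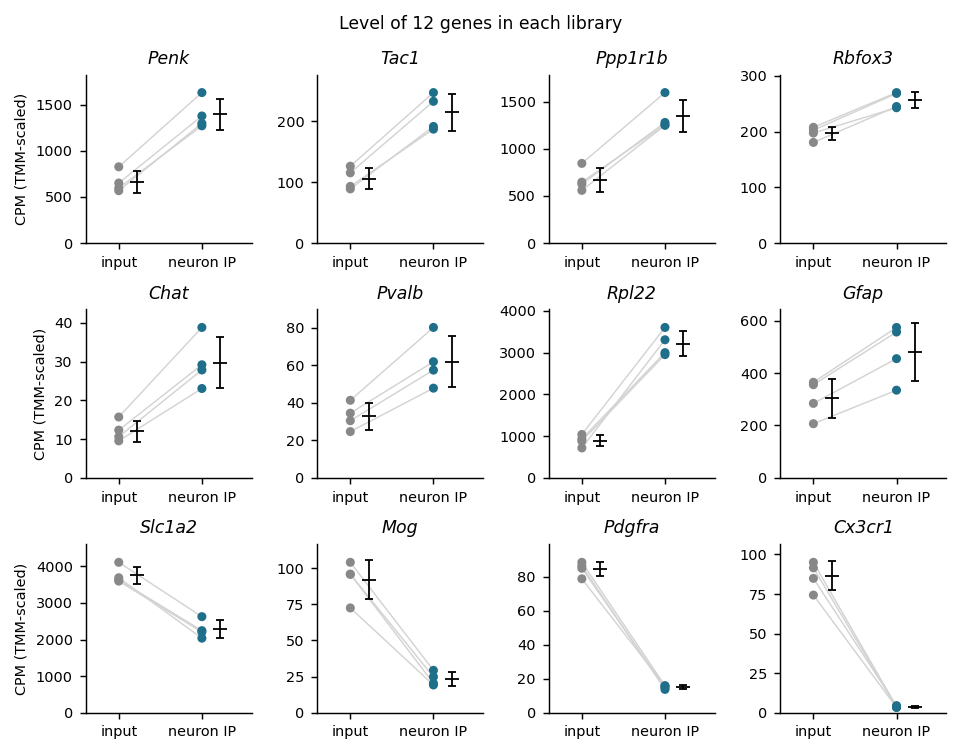
Levels of 12 genes in CPM (linear axes from 0) in each input library (grey) and neuron IP library (blue), with lines joining same-numbered libraries and black bars giving mean ± SD (n = 4). Chat, Pvalb and Gfap rise in every pair, Slc1a2 falls, and Cx3cr1 drops from a mean of 86.4 to 3.80 CPM.

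Medium spiny neuron genes rose almost throughout. Of 22 genes on the list 20 rose, none fell, and 4 passed a log2 fold change of 1, against the 35.5% of all genes that rose. The median was 0.69, a 1.61-fold rise, and pair medians ran from 0.64 to 0.73. The summed level of the list was 164% to 181% of the input in the 4 pairs. Pde1b (log2 fold change 1.02) and Pde10a (0.98), which degrade cyclic nucleotides, were near the top of the list with Ppp1r1b and Scn4b (1.01), an auxiliary sodium channel subunit. Pde10a was also its second most abundant member, with 2653 to 3384 CPM in the IP against 1313 to 1771 in the inputs. The transcription factor gene Bcl11b rose by 0.70. The 2 members that did not pass were Arpp21 (0.20) and the transcription factor Meis2 (0.10), with total-count values of -0.01 and -0.10. With the library number as a block, all 22 rose, Arpp21 by 0.20 (edgeR adjusted p = 3.6e-05) and Meis2 by 0.10 (edgeR adjusted p = 0.0051).

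Genes of both projection pathways rose. Of 9 direct pathway genes 8 were higher, with a median of 0.73, and of 8 indirect pathway genes 7 were higher, with a median of 0.52 and pair medians from 0.42 to 0.65. Whether the lists differed from each other was not tested. Drd1, listed as Drd1a in the table, had 385 to 492 CPM in the IP against 211 to 298 in the inputs (log2 fold change 0.79, SE 0.11). Drd2 had 74.2 to 89.5 CPM against 49.4 to 64.1 CPM (log2 fold change 0.53, SE 0.090). Drd1a thus stood above Drd2 in every library, also per kilobase of exon, where the mean FPKM (counts scaled to depth and exon length) in the IP was 120 for Drd1a and 27.9 for Drd2. The adenosine receptor Adora2a (0.90) and the constitutively active receptor Gpr6 (1.10), both of indirect pathway neurons, rose as well, and prodynorphin (Pdyn) and the muscarinic receptor Chrm4 of direct pathway neurons rose by 0.73 and 0.76. Eya1 (-0.12) and Sp9 (0.28), which encode transcription regulators, did not pass the test. With the block Sp9 did (edgeR adjusted p = 0.0053), so that all 8 indirect pathway genes rose, and with total counts Eya1 fell (-0.32).

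Striosomes and matrix, the compartments in which medium spiny neurons lie, were represented by 11 genes, of which 7 rose and 1 fell (median 0.31). With total counts 4 rose and 1 fell (median 0.10). Rasgrp2 was the highest at 1.02, with 188 to 250 CPM in the IP against 84.7 to 133 CPM, and the matrix marker Calb1 rose by 0.63. The mu-opioid receptor Oprm1, a striosome marker, had 8.20 to 11.1 CPM in the IP and 8.06 to 10.5 CPM in the inputs, so the groups overlapped (log2 fold change 0.11, total-count value -0.09). Bach2, a transcription repressor also listed for striosomes, was the member that fell (-0.76). Other striosome genes, Nr4a1 (0.47), Sema5b (0.34) and Kremen1 (0.31), rose without overlap. Sema5b and Kremen1 lost their calls with total counts (0.13 and 0.10). The striosome gene Lypd1 (0.18, total-count value -0.02) and the matrix gene Id4 (0.21) did not pass the test. Whether the compartments differed was not tested.

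The cholinergic interneuron list had the highest median of the lists examined, 1.09. Of its 8 genes 7 rose and 5 of them passed a log2 fold change of 1, where 0.420% of all genes did, and its summed level was 196% to 224% of the input. Chat, which makes acetylcholine, had 27.8, 38.8, 29.2 and 23.1 CPM in the IP and 10.6, 15.7, 12.3 and 9.55 CPM in the inputs. The groups did not overlap, library 2 was the highest in both, and the log2 fold change was 1.30 (SE 0.18, edgeR adjusted p = 9.7e-05). The choline transporter Slc5a7 and the vesicular acetylcholine transporter Slc18a3 both rose by 1.09. Slc17a8, the vesicular glutamate transporter that cholinergic interneurons also carry, rose by 1.13. Gbx2 (0.73), a transcription factor of their lineage at low counts, did not pass the test, but did with the block (edgeR adjusted p = 0.018), under which all 8 rose. The list median was 0.91 without IP library 2 and 1.24 without input library 2.

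GABAergic interneuron genes rose for the most part. Of 11 genes 8 rose and 1 fell, with a median of 0.56. Pvalb, the calcium buffer of fast-spiking interneurons, had 47.9 to 80.2 CPM in the IP against 24.7 to 41.4 CPM (log2 fold change 0.92, SE 0.18). Nos1 (0.65), Npy (0.61) and Sst (0.37), which mark the low-threshold spiking interneurons, rose as well, as did Th (0.87). Cck (0.60), Lhx6 (0.56) and Pthlh (0.54) were the remaining members that rose. Vip, the peptide of a further interneuron class, went the other way: 4.77 to 8.69 CPM in the IP against 12.1 to 18.5 CPM in the inputs, a log2 fold change of -1.10 (SE 0.19). Calb2 (-0.20) and Htr3a (-0.19) did not pass the test. With total counts Sst lost its call (0.17) and Htr3a was called lower (-0.40). Without IP library 2, which held 19.98 CPM of Calb2 against 3.49 to 4.44 in the other IP libraries, 2 genes of the list fell. Of the genes that make and move GABA, Gad1 (0.80), Gad2 (0.57), the vesicular transporter Slc32a1 (0.81) and the degrading enzyme Abat (0.41) rose. Abat lost its call with total counts (0.20).

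Genes of cortical and other glutamatergic neurons had small changes in both directions. Of 10 genes 1 rose and 2 fell, against 35.5% and 35.9% of all genes tested. The median was 0.10 (-0.11 with scaling by total counts). Slc17a7, the vesicular glutamate transporter of cortical neurons, had 795, 506, 859 and 682 CPM in the IP and 679, 548, 722 and 577 CPM in the inputs (log2 fold change 0.17, total-count value -0.04). Library 2 was the lowest of its group in both, the reverse of its place for the medium spiny neuron genes. With the library number as a block, 4 of the 10 rose, among them Slc17a7 (log2 fold change 0.15, edgeR adjusted p = 0.014). Without IP library 2, 4 rose and none fell, and without IP library 4, input library 1 or input library 3 none fell. Neurod6 was the member that rose without the block (0.41, not called with total counts at 0.21), and the cortical layer genes Cux2 (-0.44) and Rorb (-0.55) fell. In the control cohort described below, Rorb rose by 3.21, the most of this list, and Cux2 was at -0.04. Which cells held Rorb here was not tested. Of 10 genes of newborn neurons and dividing cells none rose and 9 fell, 6 of them beyond a log2 fold change of -1. The migrating neuroblast gene Dcx had 16.2 to 18.8 CPM in the IP against 39.2 to 46.0 CPM in the inputs (log2 fold change -1.21), and the proliferation gene Top2a fell by 3.04 on the log2 scale.

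**Figure D2:**
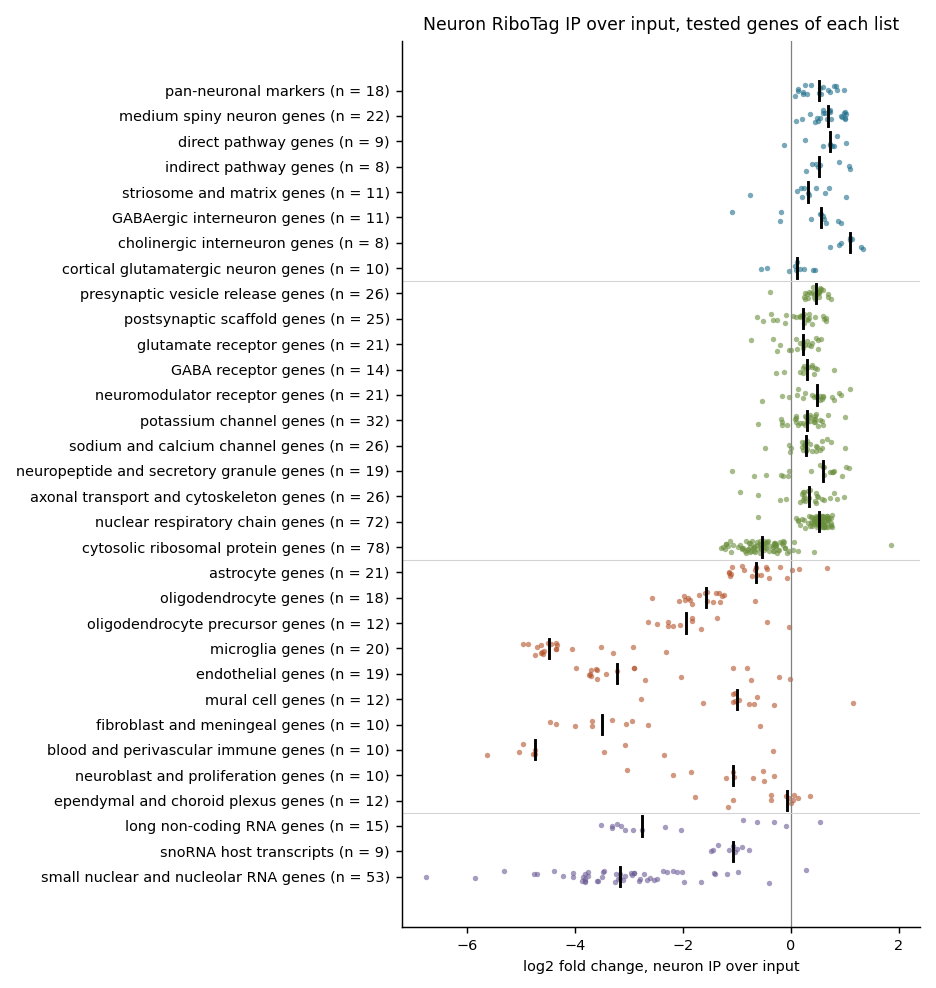
Log2 fold change of neuron IP over input (horizontal axis) for every tested gene of 32 gene lists, 1 point a gene, with black bars at the list medians and colours for neuron types, functions, other cell types and RNA classes. The cholinergic list has the highest median (1.09) and the blood and perivascular immune list the lowest (-4.74).

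Pan-neuronal and presynaptic genes rose in most cases. Of 18 pan-neuronal markers 16 rose and none fell (median 0.52, and 0.32 with scaling by total counts). The neurofilament genes Nefm (0.98), Nefl (0.85) and Nefh (0.79) were at the top with the neuronal enolase Eno2 (0.84), and the RNA-binding protein genes Elavl4 (0.14) and Celf4 (0.07) did not pass the test. With the block both rose, making 18 of 18, whereas their total-count values were -0.07 and -0.14, the latter called lower. Of 26 presynaptic genes 22 rose and 1 fell, with a median of 0.47. Snap25, a core protein of vesicle fusion, had 3233, 2689, 3416 and 2958 CPM in the IP against 2155, 1849, 2133 and 1966 CPM in the inputs, without overlap (log2 fold change 0.60, SE 0.082). Rims1, an active zone organiser, was the member that fell (-0.38).

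Postsynaptic genes were less uniform than presynaptic ones. Of 25 scaffold and signalling genes 13 rose and 4 fell, against 35.5% and 35.9% of all genes tested. The median was 0.22, and with scaling by total counts 7 rose and 7 fell. Without IP library 3, and likewise with the block, 7 fell. Nrgn, a calmodulin-binding protein of spines, had 486 to 658 CPM in the IP against 312 to 383 CPM (log2 fold change 0.65, SE 0.094), and Camk2b, a calcium-dependent kinase, rose by 0.62. Dlgap3, the gene of the scaffold SAPAP3, rose by 0.31, and Dlg4, the gene of PSD-95, by 0.29, neither of which passed with total counts (0.11 and 0.08). The scaffold gene Shank3 fell, with 144, 153, 178 and 146 CPM in the IP and 197, 198, 214 and 190 CPM in the inputs (log2 fold change -0.36, SE 0.069, edgeR adjusted p = 0.00085). Homer1, which links glutamate receptors to the scaffold, rose by 0.34, whereas its relatives Homer2 (-0.63) and Homer3 (-0.52) fell.

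Of 21 receptors for dopamine, acetylcholine, opioids, serotonin, adenosine, cannabinoids and orphan ligands 16 rose and 1 fell (median 0.48), among them Gpr6, Adora2a and Drd1a, with the cannabinoid receptor Cnr1 at 0.59. Drd3 was the member that fell (-0.54, at a mean of 1.08 CPM in the IP). Of 14 GABA receptor genes 11 rose and none fell (median 0.30), and Gabrd, a subunit of extrasynaptic receptors, was the highest at 0.80. With scaling by total counts 6 of these rose and 2 fell. Of 21 glutamate receptor genes 11 rose and 4 fell (median 0.23), which became 5 and 6 with scaling by total counts. Among all 16198 genes tested, 35.5% rose and 35.9% fell, and with total counts 3026 rose and 8002 fell. Grin1, the obligate NMDA receptor subunit, rose by 0.55 and Gria2, the AMPA receptor subunit that blocks calcium, by 0.30 (not called with total counts at 0.09), while the kainate receptor subunit Grik1 fell by 0.74.

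Of 26 sodium and calcium channel genes 22 rose and 1 fell (median 0.29). Of 32 potassium channel genes 19 rose and 3 fell (median 0.29). Among all genes tested, 35.5% rose and 35.9% fell. With scaling by total counts the counts were 9 and 3 for the first list and 12 and 4 for the second. Kcnab1, a potassium channel subunit, led its list with 566 to 703 CPM in the IP against 259 to 375 CPM (log2 fold change 1.01), followed by the inward rectifier Kcnj4 (0.69). The calcium-activated channel gene Kcnn2 (-0.61) and the L-type channel gene Cacna1d (-0.48) fell.

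Neuropeptide and secretory granule genes had a median of 0.60, with 12 of 19 higher and 2 lower. Secretogranin Scg2 rose by 0.94 and the prohormone convertase Pcsk2 by 0.79, whereas Cpe, which trims peptides in neurons and astrocytes, was at 1173 to 1351 CPM in the IP and 1251 to 1366 CPM in the inputs (log2 fold change -0.05, called lower with total counts at -0.26). Of 14 immediate early genes, which neurons switch on with activity, 9 rose and none fell (median 0.40). With scaling by total counts 7 of these rose and 3 fell. Arc had 315 to 496 CPM in the IP against 242 to 332 CPM (0.53), and Fos rose by 0.38 at an edgeR adjusted p of 0.050, a call that was lost under 10 of the alternatives tried, total counts among them (0.18).

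Of 26 genes of the axonal cytoskeleton and its motors 21 rose and 3 fell (median 0.33, and 0.12 with scaling by total counts). Kif5a, a kinesin heavy chain of neurons, stood against its list. It had 1405, 1236, 1442 and 1190 CPM in the IP and 2761, 2429, 2557 and 2361 CPM in the inputs, without overlap, a log2 fold change of -0.94 (SE 0.077, edgeR adjusted p = 2.8e-06). Its relative Kif5b fell by 0.21. Of 18 neuronal RNA-binding protein genes 7 rose and 2 fell (median 0.14), against 35.5% and 35.9% of all genes tested. That list turned to -0.07, with 2 higher and 6 lower, with scaling by total counts, and had 13 higher with the library number as a block.

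Nuclear genes of the respiratory chain rose almost without exception: 70 of 72 tested rose and 1 fell, with a median of 0.53 and a summed level of 145% to 154% of the input. Ndufa9, a complex I subunit, had 138 to 148 CPM in the IP and 80.2 to 91.6 CPM in the inputs (log2 fold change 0.76, SE 0.046), and Atp5a1, a subunit of ATP synthase, rose by 0.74. With scaling by total counts 63 rose and 2 fell. Cytosolic ribosomal protein genes went the other way, with 2 of 78 tested higher, 64 lower and a median of -0.54. Rpl4, a protein of the large subunit and the most abundant member after Rpl22, had 272 to 284 CPM in the IP against 288 to 321 CPM (log2 fold change -0.15, SE 0.042), and Rps16 fell by 1.26 from under 2 CPM. Many of these genes have near-identical pseudogenes, how such reads were counted is not given in the sources used here, and their values are uncertain for that reason. The 2 higher genes were Rpl34, at 1.02 to 1.34 CPM in the IP against 0.696 to 0.899 CPM (log2 fold change 0.43, edgeR adjusted p = 0.03), and Rpl22, the gene of the tagged protein. Rpl34 was not called with total counts (0.22). Rpl22 had 2997, 2950, 3305 and 3600 CPM in the IP and 933, 881, 717 and 1040 CPM in the inputs, which was the highest log2 fold change of all genes tested (1.85, SE 0.11, edgeR adjusted p = 4.8e-07). The counts cannot tell the transcript of the vector from that of the endogenous gene. Because of Rpl22, the summed level of the list was 120% to 150% of the input although its median was below 0, and without Rpl22 it was 68.7% to 80.2%. Cholesterol synthesis genes, with 6 of 15 higher and 4 lower (median 0.11, and -0.09 with scaling by total counts), showed no common direction. Among all genes tested, 35.5% were higher and 35.9% lower.

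Markers of other cell types fell to different degrees. All 20 microglial genes were lower by more than 1 on the log2 scale, where 15.8% of all genes were, with a median of -4.48 and a summed level of 5.10% to 7.32% of the input. Cx3cr1, the fractalkine receptor of microglia, had 3.88, 3.44, 3.39 and 4.51 CPM in the IP and 95.01, 91.53, 74.32 and 84.86 CPM in the inputs. The inputs were thus more than an order of magnitude above every IP library, and the log2 fold change was -4.51 (SE 0.11, edgeR adjusted p = 4e-09). Tmem119, Csf1r and Tyrobp, further markers of microglia, fell by 4.59, 4.74 and 4.97. The smallest change was that of Aif1 (-2.31). No defining microglial marker was at 0 in the IP. Of 16 blood and perivascular immune genes 10 passed the count filter and 9 of these were lower. The perivascular macrophage gene Mrc1 fell by 5.04 and the myeloid gene Ly6c2 by 5.63, and Cd163 (-0.33, at about 1 CPM in each group) did not pass the test, and was called lower with total counts (-0.53).

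Endothelial genes divided into a large and a small decrease. Of 19 genes 17 fell, 15 of them by more than 1, with a median of -3.22. Cldn5, the tight junction protein of brain endothelium, had 0.759 to 1.19 CPM in the IP against 10.7 to 13.9 CPM in the inputs (log2 fold change -3.60, SE 0.14), and Pecam1 and Tek fell by 3.74 and 3.99. Egfl7 (-0.02) and Cd34 (-0.23) did not pass the test, though Egfl7 was called lower with total counts (-0.22) and Cd34 with the block (-0.26), and the glucose transporter Slc2a1, which astrocytes also carry, fell by 1.07. These members had the higher counts, so the summed level of the list was 30.2% to 37.6% of the input, well above that of the microglial list. All 10 fibroblast and meningeal genes fell (median -3.50), from Col6a1 (-0.57) to Slc6a13 (-4.47). Of 12 mural cell genes 10 fell, to a summed level of 54.2% to 60.8% of the input, among them Pdgfrb (-1.07) and Rgs5 (-1.03). Tagln, a smooth muscle gene, was higher in the IP, with 10.9 to 14.1 CPM against 5.00 to 6.48 CPM (log2 fold change 1.15, SE 0.10).

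**Figure D3:**
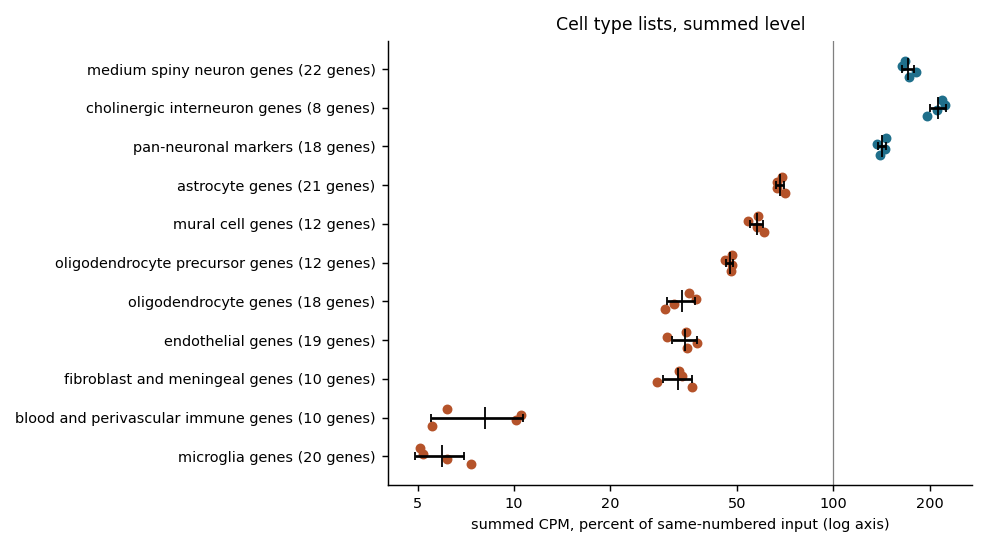
Summed level of each cell type list in the neuron IP as a percentage of the same-numbered input (log axis), 1 point a pair, with black bars giving mean ± SD over the 4 pairs. The 3 neuronal lists plotted lie above 100%, the astrocyte list at 66.6% to 70.3%, and the microglial list at 5.10% to 7.32%.

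All 18 oligodendrocyte genes fell, 17 of them by more than 1, with a median of -1.58 and a summed level of 29.8% to 37.1% of the input. Mog, a glycoprotein on the surface of myelin, had 24.9, 29.3, 19.2 and 20.4 CPM in the IP and 95.7, 104, 72.5 and 95.8 CPM in the inputs. The groups did not overlap (log2 fold change -1.97, SE 0.15). Mobp fell furthest (-2.57), and Trf, the transferrin gene, least (-0.67). Of 12 oligodendrocyte precursor genes 11 fell, with a median of -1.95. Pdgfra, the growth factor receptor that defines these cells, had 13.8 to 15.9 CPM in the IP against 78.9 to 88.6 CPM (log2 fold change -2.49, SE 0.058), and Gpr17 fell by 2.64. The extracellular matrix gene Tnr (-0.03) did not pass the test, and was called lower with total counts (-0.24).

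Astrocyte genes fell least among the glial lists. Of 21 genes 16 were lower and 2 higher, with a median of -0.64 and a summed level of 66.6% to 70.3% of the input. Slc1a2, the main glutamate transporter of astrocytes, had 2244, 2038, 2626 and 2209 CPM in the IP and 3631, 3689, 4111 and 3598 CPM in the inputs, without overlap (log2 fold change -0.72, SE 0.081, edgeR adjusted p = 2.4e-05). Glul (-1.11), which makes glutamine, and S100b (-1.14) fell further than Slc1a3 (-0.47) and Gja1 (-0.65). Aldh1l1, a general astrocyte marker, had 69.5 to 90.7 CPM in the IP and 75.8 to 85.0 CPM in the inputs, so the groups overlapped (log2 fold change 0.02, total-count value -0.18). Aqp4 (-0.20) did not pass the test either, though it did with scaling by total counts (-0.40) and with the block. Gfap, the intermediate filament of astrocytes, was higher in the IP. It had 574, 455, 335 and 556 CPM there and 364.8, 284.2, 206.7 and 355.6 CPM in the inputs, with IP library 3 inside the input range (log2 fold change 0.66, SE 0.20, edgeR adjusted p = 0.013). The log2 ratios of the pairs were 0.65, 0.68, 0.69 and 0.65, and with the block Gfap rose by 0.67 (edgeR adjusted p = 6.6e-11). Without the block, the call of Gfap and the small rise of Slc4a4 (0.15) were lost with scaling by total counts (0.46 and -0.06), under which none of the 21 was higher. Leaving out IP library 2, or input library 1, 3 or 4, left 1 of the 21 higher. How far RNA of astrocytes was carried into the IP was not tested.

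Ependymal and choroid plexus genes, of which 12 of 13 passed the filter at mostly low levels, had 1 higher and 2 lower (0 higher and 3 lower without IP library 2, 1 lower without IP library 1, 3 or 4 or input library 2 or 4), and a summed level of 90.1% to 110% of the input. For 16 interferon and antigen presentation genes none rose and 1 fell (Irf7, -1.29). That list differed between libraries of a group rather than between IP and input: it summed to 547 CPM in IP library 3 against 1203 to 1440 CPM in the others, and to 521 CPM in input library 3 against 1178 to 1534 CPM. With the library number as a block 8 of its genes rose and 5 fell, while 4 rose without IP library 3, 1 rose without input library 1 and 2 fell without input library 3.

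Non-coding RNA classes were lower in the IP than protein-coding ones. The 15082 protein-coding genes had a median of 0.04, with 37.7% higher and 33.7% lower, whereas 730 long non-coding RNA genes had a median of -0.77, with 3.97% higher and 63.2% lower. Malat1, an abundant nuclear RNA, had 722, 592, 1007 and 800 CPM in the IP and 7156, 7283, 8848 and 7893 CPM in the inputs, without overlap (log2 fold change -3.32, SE 0.16, edgeR adjusted p = 1.2e-07). Meg3, a nuclear RNA of neurons, fell by 3.52, from a mean of 924 to 80.3 CPM. Of 15 named long non-coding RNA genes tested 13 fell, Tug1 (-0.10) did not pass, though it was called lower with the block and with total counts (-0.31), and Peg13 was higher (0.54). All 9 transcripts that host small nucleolar RNAs fell, with a median of -1.08. Among small nuclear and nucleolar RNA genes 53 of 127 passed the filter. Rmrp, the RNA of a nucleolar ribonuclease, fell from 759 to 901 CPM in the inputs to 5.35 to 9.77 CPM in the IP, a log2 fold change of -6.77 (SE 0.19), and Scarna13 (0.28) was the member that was higher, which was lost with total counts (0.08).

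**Figure D4:**
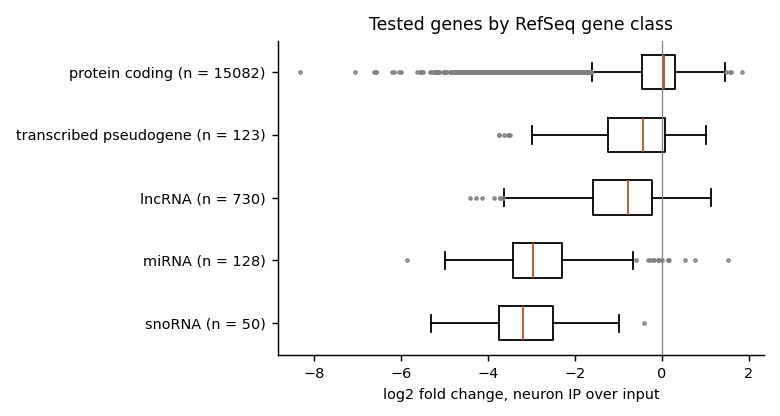
Log2 fold change of neuron IP over input by RefSeq gene class (boxes give quartiles with the median in red, whiskers reach 1.5 times the quartile range, points lie beyond). Protein-coding genes have a median of 0.04, and the miRNA and snoRNA classes medians of -2.97 and -3.19.

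Rows of microRNA genes, which in these libraries count reads from the primary transcript around each hairpin, had a median of -2.97, with 111 lower and 2 higher. MicroRNAs well known from neurons were among those that fell, and their mature sequences are shown to identify the loci and the families they share. The sequences come from RefSeq on GRCm38.p6, with the seed (bases 2 to 8) in capitals. The set was chosen after its values were seen, and no mature sequence was matched for Mir124a-2 (log2 fold change -1.71).
mmu-miR-9-5p: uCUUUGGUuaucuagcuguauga
mmu-miR-128-3p: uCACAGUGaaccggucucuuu
mmu-miR-132-3p: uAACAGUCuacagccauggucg
mmu-miR-212-3p: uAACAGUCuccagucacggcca
The sequence of miR-9-5p is encoded at Mir9-1 (chr3:88215613-88215635, plus strand), Mir9-2 (chr13:83738821-83738843, plus strand) and Mir9-3 (chr7:79505279-79505301, plus strand), so the loci differ while the product does not. Mir9-1 fell by 3.54 on the log2 scale (0.659 to 0.0545 CPM on average) and Mir9-3 by 2.55, whereas Mir9-2 had 1.37 to 1.62 CPM in the IP and 1.36 to 1.74 CPM in the inputs (log2 fold change -0.08, SE 0.14). Mir128-1 (chr1:128202404-128202424, plus strand) fell by 3.79, with no count in IP library 1. Mir132 (chr11:75173723-75173744, plus strand) and Mir212 (chr11:75173443-75173464, plus strand) share the seed AACAGUC and lie side by side. Mir212 fell from 0.882 to 1.36 CPM in the inputs to 0.337 to 0.427 CPM (log2 fold change -1.56), and Mir132 (-0.27) did not pass the test. These rows held 0 to 120 counts a library, so their precision is that of low counts.

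The genes with the largest changes, at a mean of at least 5 CPM and without overlap, lay between 1.85 and -6.77 on the log2 scale. Among the highest after Rpl22 were Gtse1 (1.30), Chat (1.30), Dmkn (1.17), Tagln (1.15), Serpina9 (1.14) and the vesicle transporter homologue Slc10a4 (1.14). Gtse1, a regulator of the cell cycle, rose although dividing-cell genes fell, from 3.42 to 6.02 CPM in the inputs to 10.9 to 14.5 CPM. Rem2, a small GTPase that regulates calcium channels, had 63.6 to 79.1 CPM in the IP against 28.3 to 37.7 CPM (1.13). The lowest were Rmrp and Igj, the joining chain of secreted antibodies, which fell from 37.7 to 92.2 CPM to 0.929 to 2.01 CPM (log2 fold change -5.55, SE 0.33). Of the other 10 lowest, the leukocyte ligand Selplg fell by 4.99 and the small nucleolar RNA Snora74a by 4.77, and Tyrobp, Gpr34, Csf1r, Lyz2, C1qb, C1qc, Ly86 and Laptm5 are genes of microglia and other myeloid cells. Protein-coding genes also differed in order of exon length. Among 5 classes of equal size, the one of 320 to 2032 bases had a median of 0.14 with 43.8% higher, and the one with the longest exons a median of -0.04 with 31.7% higher, given as a description across genes.

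The neuron IP was set beside that of another cohort of C57/BL6NTac mice labelled Control, with 4 IP and 4 input libraries. The labels do not state that promoter, and the study's methods describe an AAV2/5 GfaABC1D-Rpl22-HA vector for astrocytes beside the neuronal one. The cohorts share no library, and cohort and promoter cannot be told apart. In an edgeR fit of all 16 libraries with the difference of the IP effects as the contrast, the effect was higher in the neuron IP for 5856 of 16371 genes (35.8%) and lower for 5613 (34.3%).

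All 22 medium spiny neuron genes had a higher effect in the neuron IP, with a median of 0.69 there against -1.03 in the control cohort. For Adora2a the log2 fold changes were 0.90 and -1.45, a difference of 2.34 (edgeR adjusted p = 6.9e-10). All 21 astrocyte genes had a lower effect in the neuron IP, with medians of -0.64 and 2.82. Slc1a2 differed most of the genes fixed by name, with -0.72 against 3.64 (difference -4.36, edgeR adjusted p = 2.3e-15), and Gfap, which rose in both, differed by -2.59. All 18 oligodendrocyte genes had a lower effect in the neuron IP as well, with medians of -1.58 and 0.06. Microglial genes fell in both cohorts, with medians of -4.48 and -5.34, and for 14 of 20 the decrease was smaller in the neuron IP.

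Interneuron genes did not follow the projection neurons. None of the 8 cholinergic genes had a higher effect in the neuron IP and 6 had a lower one, with medians of 1.09 and 2.27, and of 11 GABAergic interneuron genes 1 was higher and 8 were lower, with medians of 0.56 and 1.40. For Chat the log2 fold changes were 1.30 and 2.44 (difference -1.13, edgeR adjusted p = 8.8e-05), so that its rise was smaller in the neuron IP. Pvalb was the exception, at 0.92 against -0.83. Presynaptic genes had a higher effect in the neuron IP for 17 of 26 and respiratory chain genes for 61 of 72. For 15 of 15 cholesterol synthesis genes the effect was lower in the neuron IP.

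**Figure D5:**
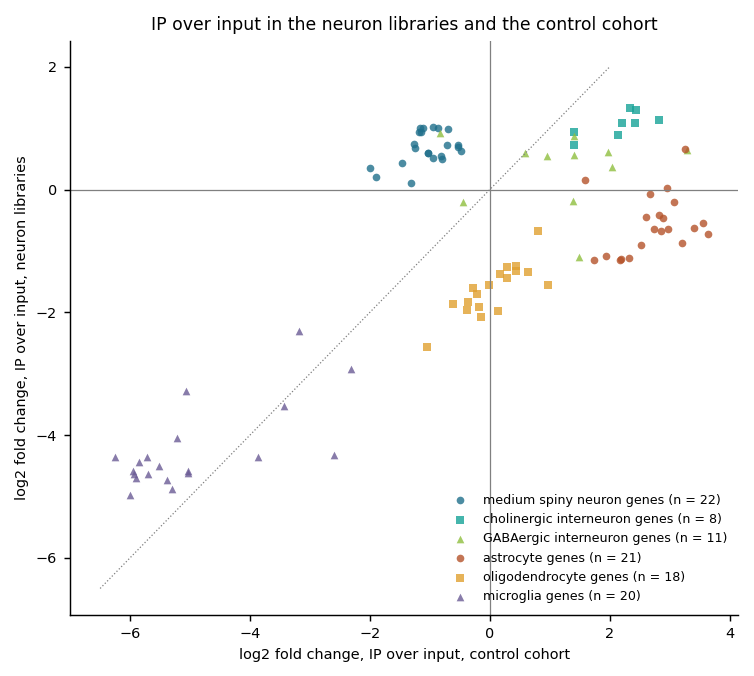
Log2 fold change of IP over input in the neuron libraries (vertical axis) and in the control cohort (horizontal axis) for the tested genes of 6 lists, with the dotted line marking equal effects. Medium spiny neuron genes lie above 0 on the vertical and below 0 on the horizontal axis, astrocyte genes lie at the far right, and microglial genes are below 0 on both.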

How the data were processed

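RNA of the striatal input and of the anti-HA precipitate was sequenced from libraries for which the labels name a TruSeq Stranded kit with RiboZero Gold and the study's methods a Nugen Ovation kit. The labels also give the molecule as polyA RNA. Per the labels, the authors aligned reads to mm10 with STAR and counted them with HTSeq, and the deposited values are raw counts per gene symbol. Tool versions, the gene annotation and the strand setting are not given in the sources used here. Mitochondrially encoded genes were not analysed here.

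Counts were filtered with filterByExpr, scaled by TMM and tested with edgeR 4.0.16 (quasi-likelihood F test, Benjamini-Hochberg adjustment, threshold 0.05) in R 4.3.3. The 4 IP libraries were compared with the 4 inputs, and a fit of 16 libraries tested the difference from the control cohort. Alternatives used DESeq2 size factors, total counts, no filter, FPKM above 5 in all libraries of a group, limma-voom 3.58.1, DESeq2 1.42.0, a block on the library number and each library left out. Same-numbered libraries deviated together from their group means (correlations over 11516 genes of 0.642, 0.702, 0.792 and 0.486), so the numbers pair them. The labels do not say what a number marks, and p-values may measure technical spread only. Exon lengths for values per kilobase came from RefSeq, which matched 23877 of 24060 symbols. Scripts were tested on simulated data.

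Members and gene lists were chosen with earlier results of these data known. Genes are named if they were fixed by name, belong to a short list, are among the 3 most abundant, highest or lowest of a longer list, or are among the 12 highest or lowest called genes. Dlgap3, the Mir genes and the sum without Rpl22 were added after values were seen. Figures used matplotlib 3.10.9. Some genes that meet this rule are not reported here.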

Additional observations from a re-analysis of the deposited data

Results flagged for a closer look

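Of 166 groups of 4 libraries examined (genes fixed by name and summed lists, in IP and input), 11 held a library whose gap to the others exceeded Dixon's critical value, which is 6.63% where chance flags about 1 in 20. IP library 2 stood above the others for Ppp1r1b (1596 CPM against 1249 to 1279), Drd2 (89.5 against 74.2 to 76.6), Bcl11b (527 against 442 to 455) and the summed medium spiny neuron genes (26050 against 21656 to 22384). IP library 3 was low for Slc1a3 (334 against 374 to 381) and for the snoRNA host transcripts (46.4 against 50.7 to 51.6), and high for the postsynaptic scaffold genes (10602 against 9377 to 9563). IP library 1 was low for the neuropeptide and secretory granule genes (5882 against 6275 to 6332). Among inputs, library 2 was high for P2ry12 (48.5 against 42.9 to 43.1), and library 3 was high for the astrocyte genes (9992 against 9491 to 9565) and low for the cytosolic ribosomal protein genes (3881 against 4574 to 4579).

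For 10 of the genes fixed by name the IP effect differed from that of the control cohort by more than 2 on the log2 scale in edgeR's test of the difference. Tac1 (2.11) and Adora2a (2.34) had the higher effect in the neuron IP. Aldh1l1 (-2.94), Slc1a2 (-4.36), Slc1a3 (-3.36), Gja1 (-3.62), Aqp4 (-3.26), Gfap (-2.59), Pdgfra (-2.95) and Cspg4 (-2.57) had the lower one.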

How the results depend on the processing

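Scaling by total counts left 3026 genes higher and 15 above a log2 fold change of 1. Keeping genes with FPKM above 5 tested 8301 genes and moved the log2 fold changes of genes tested under both filters by a median of -0.19. That filter left 2877 higher, 2920 lower, 3 above 1, 512 below -1, and 3579 and 3523 higher and lower against the control cohort. List medians moved with total counts to 0.48 (medium spiny neuron), 0.89 (cholinergic), -0.84 (astrocyte), -1.78 (oligodendrocyte), -4.68 (microglia) and -3.42 (endothelial), and with the FPKM filter to 0.50, -0.84, -1.77, -4.67 and -1.26 for these lists other than the cholinergic one. The sign turned with total counts and the FPKM filter for cortical glutamatergic (-0.11 and -0.08), RNA-binding protein (-0.07 and -0.06) and cholesterol synthesis genes (-0.09 and -0.07), and for interferon genes with total counts (-0.01) and without input library 3 (-0.08). The cause was not tested. Leaving out each library in turn gave 57 to 104 genes above 1, the latter without input library 2, and medians of 0.65 to 0.75 for medium spiny neuron and 0.91 to 1.24 for cholinergic genes.

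With the library number as a block, which follows the pairing, 6464 genes were higher and 6416 lower, 71 above 1 and 2574 below -1. The block moved list counts by over 1.5 times for cortical glutamatergic (4 higher), postsynaptic (7 lower), GABA receptor (2 lower), neuropeptide (5 lower), RNA-binding protein (13 higher), immediate early (2 lower), ependymal (2 higher, 5 lower) and interferon genes (8 higher, 5 lower). Of 687 alternative values for 46 genes fixed by name 661 kept direction and call, 17 lost the call, 9 gained it and 0 reversed. Rows of under 1 CPM are limited by low counts.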
